A study of Mus musculus with 6 samples.

Results

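The enzymes described here build the core of the gangliosides in mouse retina. They are Ugcg, B4galt5, B4galt6, B4galnt1 and B3galt4, which add sugars to ceramide in turn, and Gne, Nans, Cmas and Slc35a1, which make, activate and transport sialic acid. They were taken by symbol from the expression tables, where all 9 were found among 24346 gene symbols. The rule names genes and uses no measured value, but the genes were chosen with earlier results of these data known. The data are 6 RNA-seq libraries of whole retina from mice at postnatal day 12, 3 labelled Panky+/-;Panky-like+/-;Nrl-/- (control) and 3 labelled Panky-/-;Panky-like-/-;Nrl-/- (triple-deficient). The retinas came from 3 pairs of littermates, 1 mouse of each genotype in a pair, and the labels do not say which libraries form a pair. Every mouse lacked Nrl, a transcription factor needed to form rods, which leaves both groups with mostly cone-like photoreceptors, and no retina with normal rods was compared. The controls carried a mutant copy of Panky and of Panky-like too. Strain, sex and the number of retinas per library are not given in the labels.

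Gangliosides are sphingolipids of the outer cell membrane that carry sugars with sialic acid and are abundant in neurons. Their synthesis starts when glucose is placed on ceramide, continues with galactose to give lactosylceramide, and branches as sialyltransferases and the enzymes named above extend the chain in the Golgi. Sialic acid itself is made in the cytosol, activated to CMP-sialic acid in the nucleus and carried into the Golgi. Panky (Ankrd33) is a photoreceptor protein with ankyrin repeats that represses genes activated by CRX, a homeodomain factor of photoreceptors, and the title of the series links Panky and Panky-like to ganglioside metabolism. The comparison therefore asks whether transcripts of the core enzymes differ between the genotypes.

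None of the 9 genes was called at an adjusted p below 0.05, which does not show that they are unchanged. None had groups that did not overlap. Over all 14325 genes tested, 4 were called (0.0279%) and the groups did not overlap for 10.5%, so 0 of 9 sets these genes apart from the table in neither respect. The 6 genes Cmas, Ugcg, Slc35a1, B4galnt1, Nans and B4galt6 averaged between 12.0 and 38.9 FPKM (fragments per kilobase of a transcript's length, corrected for sequencing depth), and Gne, B4galt5 and B3galt4 between 4.47 and 8.84 FPKM. Differences between the group means of a gene ran from -4.19% for B4galnt1 to 8.83% for B3galt4. The 9 values summed to 135 ± 1.305 FPKM per control library (SD, n = 3) and 134 ± 0.751 FPKM per triple-deficient library (n = 3).

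The promoters of Ugcg, B4galt5 and B3galt4, on the route from ceramide, are shown because a co-repressor of CRX would be looked for at such sequences. RefSeq (GRCm38.p6, the build mm10) gave upstream windows of 250 bases for 6 of the 9 genes, 7 windows in all, with Gne having 2. The Slc35a1 window and the Gne window starting at 44072718 lay wholly inside the RefSeq span of their gene. Genes without a window in that table were B4galnt1, B4galt6 and Nans. In all, 3 motifs were searched on both strands, each overlapping match being counted: TAATCC, the core letters bound by CRX, GGGCGG, known as the GC box, and TATAAA. Capitals mark their matches, which in the lines below are all GC boxes or their complement, and each line runs 5′ to 3′ on the strand of the gene. The Ugcg line ends where its RefSeq gene span begins, after 207 bases.
Ugcg, plus strand, chr4:59189300-59189506: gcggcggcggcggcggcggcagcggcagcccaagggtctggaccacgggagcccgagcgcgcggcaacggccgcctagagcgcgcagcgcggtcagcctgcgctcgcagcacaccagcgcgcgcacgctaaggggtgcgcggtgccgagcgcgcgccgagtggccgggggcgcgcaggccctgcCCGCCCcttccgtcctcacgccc
B4galt5, minus strand, chr2:167349179-167349428: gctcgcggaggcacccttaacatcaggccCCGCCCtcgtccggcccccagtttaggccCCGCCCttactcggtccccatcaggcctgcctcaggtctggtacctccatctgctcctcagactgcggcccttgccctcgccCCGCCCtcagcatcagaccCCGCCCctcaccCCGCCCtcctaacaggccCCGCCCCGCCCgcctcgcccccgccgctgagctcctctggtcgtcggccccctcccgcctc
B3galt4, minus strand, chr17:33951489-33951738: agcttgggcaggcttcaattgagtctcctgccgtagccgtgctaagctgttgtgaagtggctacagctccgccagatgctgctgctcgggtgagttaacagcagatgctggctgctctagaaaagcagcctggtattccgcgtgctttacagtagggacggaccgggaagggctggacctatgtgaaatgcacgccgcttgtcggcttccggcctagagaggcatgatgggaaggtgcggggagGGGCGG

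TAATCC was in 0 of the 7 windows, against 6.25% of all 32851 windows in the table. GGGCGG was in 4 of the 7, those of Ugcg, B4galt5, B3galt4 and Slc35a1, or 57.1% against 32.7% of all windows. B4galt5 held 7 copies of it and Ugcg 2, not all of them within the bases printed for Ugcg. The windows of Gne and Cmas held none of the motifs searched and are not printed, so every line printed holds a match. Median GC content was 59.2% in the member windows against 52.4% in all windows, and the shares were not corrected for it. TATAAA was in 1 window, that of Slc35a1 inside the gene span, or 14.3% against 12.4%. These are matches of letters and say nothing of binding.

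The labels were checked on the targeted genes. Ankrd33, which is Panky, was at 104 to 110 FPKM in control libraries but at 50.5 to 59.6 FPKM in triple-deficient ones, and Ankrd33b, taken here as Panky-like although the labels do not say so, at 32.6 to 35.4 FPKM and 1.31 to 1.81 FPKM (n = 3 each). Both fell (log2 changes of -0.93 and -3.80, limma adjusted p = 0.00274 and 4.56e-07). Nrl transcripts were present at 38.3 to 49.2 FPKM in control and 51.3 to 53.7 FPKM in triple-deficient libraries, groups that did not overlap (limma adjusted p = 0.861), and these gene-level values do not tell which exons they come from. Ankrd33 was thus still measured in the triple-deficient libraries, which are named here as labelled. Of the defining markers of cones, the opsin Opn1sw stood at 1406 to 1568 FPKM. Summed markers of the pigment epithelium (21.6 to 32.6 FPKM in controls, 13.5 to 20.6 FPKM in triple-deficient libraries) and of Müller glia (1788 to 1840 against 1620 to 1747 FPKM) did not overlap between the groups. The summed markers of cones, rods, bipolar, amacrine and ganglion cells, microglia and blood did overlap. No gene of any marker list was called, and the groups did not overlap for 10.5% of all single genes tested. The 6 lens markers summed to 0.515 to 14.2 FPKM in controls and to 0.805 to 0.956 FPKM in triple-deficient libraries, ranges that overlapped, with the high sum in control 1. What part these cells have in the values below was not tested. In whole retina, fewer cells of a type and less RNA per cell cannot be told apart.

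Ugcg encodes glucosylceramide synthase, which commits ceramide to this route (chromosome 4, 59189507 to 59222833 of GRCm38). It stood at 21.3, 21.9 and 21.9 FPKM in control libraries 1, 2 and 3 and at 22.5, 21.9 and 22.04 FPKM in triple-deficient libraries 1, 2 and 3. All 6 values lay within 1.05-fold of each other, and the groups overlapped. Changes here are differences of mean log2(FPKM + 1), with the controls subtracted. That of Ugcg was 0.03 (SE 0.044, 95% interval -0.07 to 0.13, limma adjusted p = 0.966). Its spread within groups, a residual SD of 0.020 on the log2 scale, was undercut by only 1.17% of the 3343 genes whose mean lay within 1.5-fold of its own.

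Lactosylceramide is made by the paralogs B4galt5 and B4galt6, which transfer galactose to glucosylceramide. B4galt5 (chromosome 2, 167298444 to 167349178) was at 6.53, 6.98 and 6.98 FPKM in the controls and at 6.28, 7.47 and 6.51 FPKM in the triple-deficient libraries. The triple-deficient libraries held its highest and its lowest value, with the controls between them. B4galt6 (chromosome 18, 20684599 to 20746404) was at 12.1, 12.8 and 11.7 FPKM in the controls and at 11.0, 12.2 and 12.1 FPKM in the triple-deficient libraries. Only triple-deficient 1 lay below the range of the controls for B4galt6. The log2 changes were -0.02 for B4galt5 (SE 0.074, limma adjusted p = 0.989) and -0.05 for B4galt6 (SE 0.061, limma adjusted p = 0.960).

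B4galt6 was higher than B4galt5 in 6 of 6 libraries and made up 62.0% to 65.0% of the FPKM of the pair. The ratio of B4galt6 to B4galt5, which does not depend on the scaling between libraries, was 1.86, 1.83 and 1.67 in the controls and 1.75, 1.63 and 1.86 in the triple-deficient libraries. The groups overlapped, and the log2 ratio differed by -0.03 (exact two-sided permutation test, p = 0.7, the smallest possible being 0.1). With trends with GC content and length removed, on the log2(FPKM + 1) scale, the difference was -0.07 (exact two-sided permutation test, p = 0.3). The ratio is therefore not free of such trends. Among all 7 B4galt genes, whose other members mainly act on glycoproteins and proteoglycans, B4galt6 ranked as number 3 in mean FPKM and B4galt5 as number 7. B4galt2 and B4galt3 led the family at 27.0 and 20.0 FPKM.

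B4galnt1, the GM2 and GD2 synthase, adds N-acetylgalactosamine and opens the way to the complex gangliosides of neurons (chromosome 10, 127165156 to 127172340). It was at 13.5, 12.7 and 13.8 FPKM in the controls and at 13.1, 12.98 and 12.3 FPKM in the triple-deficient libraries. The lowest value was that of triple-deficient 3, and controls 1 and 3 were the highest. Its log2 change was -0.06 (SE 0.056, 95% interval -0.18 to 0.07, limma adjusted p = 0.958), and 0.02 once trends with GC content and length were removed. The ratio of B4galnt1 to Ugcg was 0.635, 0.580 and 0.630 in the controls and 0.583, 0.593 and 0.556 in the triple-deficient libraries. These ranges overlapped, with a log2 difference of -0.09 (exact two-sided permutation test, p = 0.3) that became 0.02 without those trends.

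B3galt4 encodes the GM1 synthase, which adds the terminal galactose of GM1 and GD1b (chromosome 17, 33949912 to 33951488). It had the lowest level of the 9, at 4.62, 4.28 and 3.95 FPKM in the controls and 5.15, 4.69 and 4.15 FPKM in the triple-deficient libraries. Triple-deficient 1 and 2 were above every control, while triple-deficient 3 lay below controls 1 and 2. The log2 change of 0.10 (SE 0.087, limma adjusted p = 0.958) was the farthest from 0 of the 9 genes in the fit of all 6 libraries. With 1 library left out it ran from 0.036, without triple-deficient 1, to 0.165, without triple-deficient 3, and in the first of these fits B4galnt1 and Gne were farther from 0. Its 95% interval was -0.10 to 0.30, and ended at 0.35 with a pseudocount of 0.1 in place of 1. With the GC and length trends removed the change was 0.17 (limma adjusted p = 0.830). B3galt4 was number 3 of 5 B3galt genes, behind B3galt2 at 14.0 and B3galt1 at 6.42 FPKM, and its share of their summed FPKM was 13.6% ± 0.912 in controls and 14.7% ± 1.94 in triple-deficient libraries (SD, n = 3). B4galnt1 was number 2 of 4 B4galnt genes, just behind B4galnt4 at 14.1 FPKM, a gene for an enzyme of glycoproteins.

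**Figure D1:**
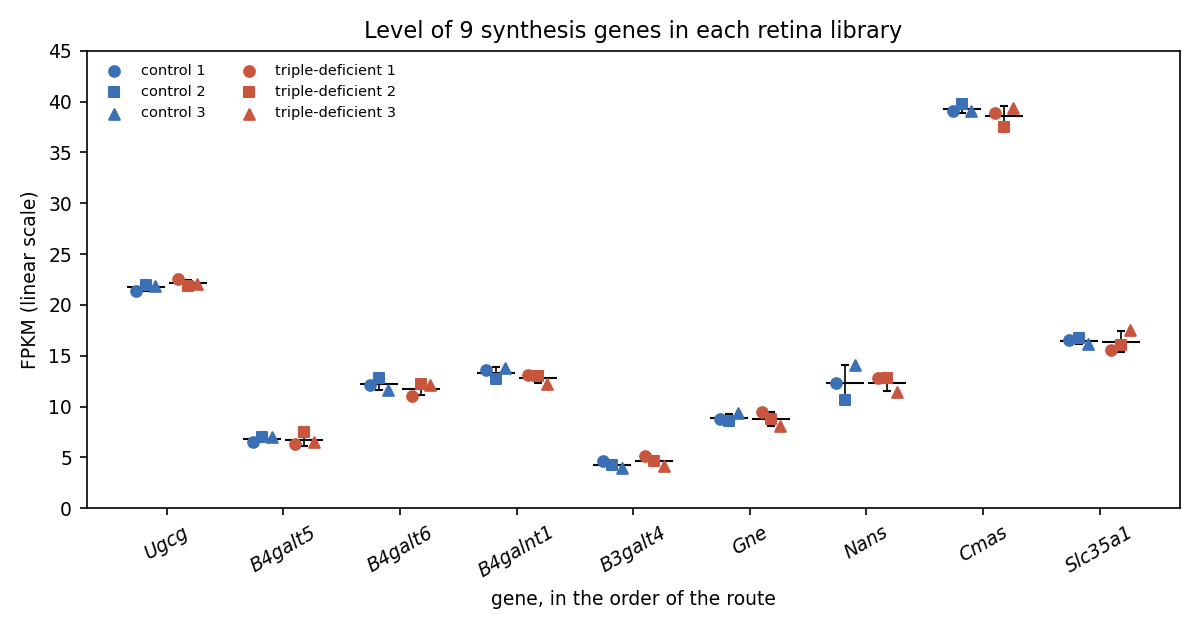
Level of each of the 9 genes, in FPKM on a linear axis, in the 3 control (blue) and 3 triple-deficient (red) libraries, with the mean and SD of each group in black. For every gene the points of both groups overlap, from B3galt4 at 3.95 to 5.15 FPKM up to Cmas at 37.5 to 39.8 FPKM.

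Sialic acid synthesis begins with Gne, an enzyme with epimerase and kinase activity whose first reaction limits the route (chromosome 4, 44034075 to 44084177). It was at 8.78, 8.61 and 9.34 FPKM in the controls and at 9.49, 8.81 and 8.04 FPKM in the triple-deficient libraries. Its highest and lowest values were both in triple-deficient libraries, numbers 1 and 3. The log2 change was -0.02 (SE 0.070, limma adjusted p = 0.984).

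Nans, which condenses the product of Gne into sialic acid 9-phosphate, lies on the same chromosome (46489329 to 46503438). Its values were 12.3, 10.6 and 14.1 FPKM in the controls and 12.8, 12.8 and 11.4 FPKM in the triple-deficient libraries. Controls 2 and 3 formed the ends of its range, a 1.32-fold span, the widest of the 9 genes. The group means, 12.3 ± 1.71 and 12.3 ± 0.823 FPKM (SD, n = 3), gave a log2 change of 0.005 (SE 0.096, 95% interval -0.21 to 0.22, limma adjusted p = 0.998). Its residual SD within groups, 0.147 on the log2 scale, exceeded that of 90.6% of 3585 genes of like level. In the GENCODE M21 annotation 29.6% of its exonic bases overlap Trim14 on the other strand, which was listed at 0.146 to 0.303 FPKM.

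Cmas activates sialic acid to CMP-sialic acid in the nucleus (chromosome 6, 142756686 to 142775714). It was the most abundant of the 9 transcripts, at 39.0, 39.8 and 39.1 FPKM in the controls and 38.9, 37.5 and 39.4 FPKM in the triple-deficient libraries. Triple-deficient 2 was the lowest, and the other 5 lay within the range from 38.9 to 39.8 FPKM. The log2 change of Cmas was -0.03 (SE 0.043, 95% interval -0.12 to 0.07, limma adjusted p = 0.966).

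Slc35a1, the Golgi transporter of CMP-sialic acid (chromosome 4, 34663257 to 34688113), was at 16.6, 16.7 and 16.1 FPKM in the controls and 15.6, 16.02 and 17.5 FPKM in the triple-deficient libraries. As for B4galt5 and Gne, the triple-deficient libraries spanned a wider range than the controls and enclosed it. The log2 change was -0.01 (SE 0.057, limma adjusted p = 0.994). B4galnt1 shares 20.7% of its exonic bases with Slc26a10 on the other strand, which was at 0.118 to 0.516 FPKM. Apart from B4galnt1 and Nans, the genes share at most 3.62% with any annotated gene. Whether the authors' counting used strand is not given in the sources used here.

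In mean FPKM the order was Cmas, Ugcg, Slc35a1, B4galnt1, Nans, B4galt6, Gne, B4galt5 and B3galt4. The ranges over 6 libraries did not overlap between neighbours in that order, except for B4galnt1 with Nans and Nans with B4galt6. B4galnt1 was higher than Nans in 5 of 6 libraries and Nans higher than B4galt6 in 4 of 6, so neither of these pairs of neighbours was separated beyond its spread. Cmas stood at the 84.3 percentile of mean FPKM among 14325 genes tested, and B3galt4 at the 26.7 percentile. Of the 9 genes, 4 (Slc35a1, Gne, Nans and Ugcg) lie on chromosome 4, and the 9 are spread over 6 chromosomes.

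The fit across all genes called 0 of the 9 members at an adjusted p below 0.05, against 4 of 14325 genes or 0.0279%, and 0 of the 9 were at an unadjusted limma p below 0.05, against 5.09%. Groups did not overlap for 0 of the 9, against 10.5% of all genes tested. The median log2 change was -0.02, with 6 changes below 0 and 3 above, and the median over all genes tested was 0.003. In size, the median change of the members was 0.03 and that of all genes 0.05. All 9 intervals lay between -0.21 and 0.30, thus within 1.3-fold of FPKM + 1 in either direction, which held for 87.3% of all genes tested. The number of genes called over the whole table was 8 without control 3, 11 without triple-deficient 1 and 11 without triple-deficient 3, and none of these fits called a member. The sign of the change turned under at least 1 of 16 alternatives for B4galt5, B4galnt1, Gne, Nans and Slc35a1.

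**Figure D2:**
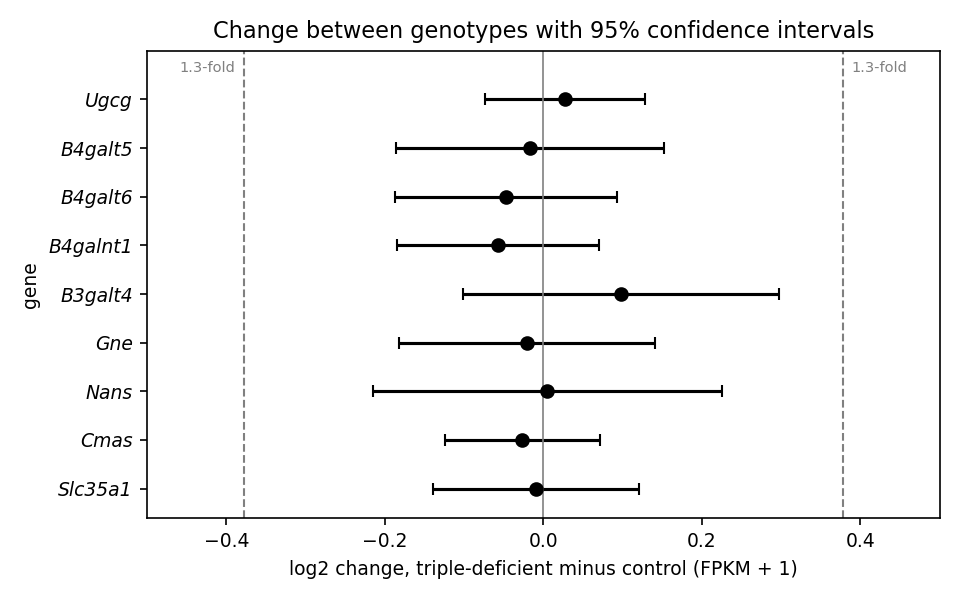
Difference in mean log2(FPKM + 1) of each gene, control subtracted from triple-deficient, as a point with its 95% confidence interval from limma, 3 libraries per group; dashed lines mark 1.3-fold in either direction. Every interval includes 0 and ends inside the dashed lines, the closest being that of B3galt4 at 0.30.

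The number of fragments differed between the 9 genes, and the spread within groups did not follow it for every gene. From the steps of low values the libraries were estimated to hold 18.2 to 27.3 M fragments, which with the longest annotated transcript puts about 119 to 222 fragments on B3galt4 and 2319 to 3428 on Cmas. Counting alone would give a coefficient of variation of 9.15% for B3galt4 in its thinnest library, and 9.53% was seen within groups. For Cmas these were 2.08% and 1.93%, and for Ugcg 2.49% and 1.47%. In both genes the spread seen was below the counting estimate for the thinnest library, which is the largest such estimate of the 6 libraries. The low rank of the spread of Ugcg therefore does not show a steadier gene. For Nans the counting and seen values were 4.30% and 10.9%, and for B4galt5 4.48% and 7.11%. These fragment numbers are estimates and are upper values where shorter transcripts dominate.

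In no library did all members deviate from their means in the same direction. Some members did move alike: B4galnt1, Gne and Nans were below their means in control 2 and triple-deficient 3 and above them in control 3. Correlation between members was not tested. Triple-deficient 1 held the highest value of 3 genes (Ugcg, B3galt4 and Gne) and the lowest value of 3 others (B4galt5, B4galt6 and Slc35a1). In triple-deficient 3, B4galnt1, B3galt4, Gne and Nans were 0.09 to 0.12 below their means on the log2 scale and Slc35a1 was 0.09 above. That library stood apart in base composition. The Spearman correlation of its deviations with GC content, over 13790 genes that are not independent, was -0.59, and it was 0.06 to 0.30 in the other 5. With length, the correlation farthest from 0 was that of control 3, at -0.31. The change between genotypes carried such trends too, with correlations of -0.36 with GC content and 0.20 with length. Over the 9 members the correlation of the deviations of triple-deficient 3 with GC content was -0.48, a description of points that share a library. B4galnt1 and B3galt4 had the highest GC content, 60.2% and 58.9%, and Ugcg and Slc35a1 the lowest, 43.6% and 44.2%. What part base composition has in these deviations was not tested beyond the fit with the trends removed, in which no member was called.

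**Figure D3:**
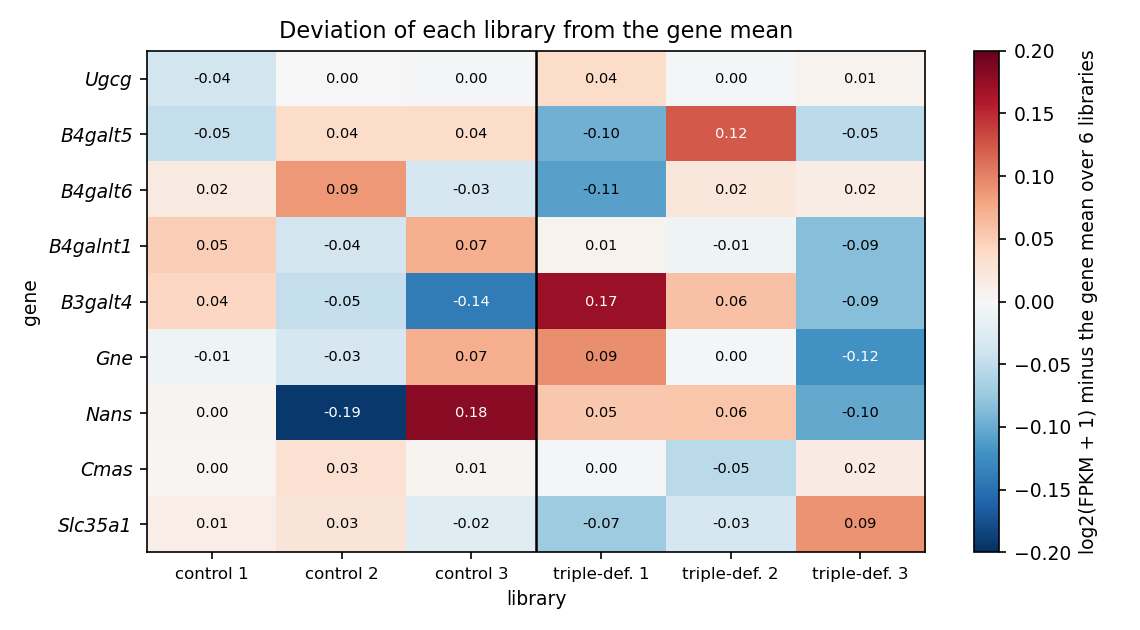
Deviation of log2(FPKM + 1) of each gene (rows) in each library (columns) from its mean over 6 libraries, in colour and as numbers; the black line separates the 3 controls from the 3 triple-deficient libraries. In no row do all 3 controls lie on one side of all 3 triple-deficient libraries, and the ends of the scale are Nans in controls 2 and 3, at -0.19 and 0.18.

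By root mean square difference of these deviations over the 6 libraries, the genes most like Ugcg among 10187 with a mean of at least 5 FPKM were Cbfa2t2 (0.0048), Gbe1 (0.0072) and Abca4 (0.0090). Cbfa2t2 is a transcriptional co-repressor, Gbe1 the glycogen branching enzyme and Abca4 the retinoid flippase of photoreceptor discs. For B4galnt1 they were Fxr2 (0.0080), Apoa1bp (0.0107) and Trim67 (0.0119). A flat profile is common, since 20.2% of the genes compared lay within 0.05 of Ugcg and 10.7% within 0.05 of B4galnt1.

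In what follows the control mean stands first and the triple-deficient mean second, each with its SD (n = 3). Neighbouring steps of the pathway were followed in 10 lists with 93 symbols, of which 82 were tested. None was called, and 7 were at an unadjusted limma p below 0.05, 5 lower and 2 higher, or 8.54% against 5.09% of all genes. Groups did not overlap for 9 of the 82, 11.0% against 10.5%. Of 13 genes that supply ceramide, the substrate of Ugcg, 3 were at an unadjusted p below 0.05. The ceramide synthase Cers5 averaged 24.0 ± 1.23 FPKM in controls against 20.1 ± 0.400 FPKM in triple-deficient libraries, and Cers1 10.5 ± 0.886 against 8.37 ± 1.40 FPKM (SD, n = 3, limma adjusted p = 0.508 and 0.866). The third, Sptssa, a small subunit of serine palmitoyltransferase, had the higher level in triple-deficient libraries, 124 ± 3.44 against 135 ± 4.45 FPKM (limma adjusted p = 0.930). The groups did not overlap for any of these 3 genes. The median log2 change of that list was 0.02.

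Glucosylceramide handling held 1 such gene of 9. Gltp, a cytosolic glycolipid transfer protein, had 10.2 ± 0.216 and then 8.91 ± 0.573 FPKM (SD, n = 3, limma adjusted p = 0.866). Of 11 ganglioside sialyltransferases none was at an unadjusted p below 0.05, and the 2 with the smallest p were St6galnac5 and St8sia5, the first with 4.45 ± 0.158 FPKM in controls against 4.77 ± 0.335 FPKM, the second with 6.96 ± 0.315 against 6.47 ± 0.737 FPKM. Of 4 tested genes of other branches from lactosylceramide, 3 averaged below 1 FPKM and B3galnt1, the globoside synthase, 14.8 FPKM. A3galt2 of the isoglobosides had 0.843 ± 0.182 FPKM in controls against 0.9997 ± 0.196 FPKM, and Gbgt1, the Forssman synthase, 0.901 ± 0.150 against 0.802 ± 0.173 FPKM.

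Around sialic acid, 2 of 12 genes were at an unadjusted p below 0.05. Uap1 completes UDP-N-acetylglucosamine, the substrate of Gne, and averaged 25.4 ± 1.24 FPKM in controls against 28.9 ± 0.938 FPKM (log2 change 0.18, SE 0.052, limma adjusted p = 0.807). Npl, which cleaves sialic acid, averaged 7.81 ± 0.657 FPKM in controls against 6.74 ± 0.025 FPKM (log2 change -0.18, SE 0.069, limma adjusted p = 0.906). The groups did not overlap for either, and neither passed. Nucleotide sugar supply held 0 of 13, its smallest p being those of Galk1 and Galt, enzymes of galactose use. Galk1 averaged 9.88 ± 0.250 FPKM in controls against 9.17 ± 0.832 FPKM, and Galt 24.0 ± 1.502 against 22.5 ± 1.55 FPKM.

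Paralogs of the members that act on other substrates gave 1 gene of 13 at an unadjusted p below 0.05. B3galt6, which builds the linker of proteoglycans, averaged 4.55 ± 0.280 FPKM in controls against 3.79 ± 0.186 FPKM (SD, n = 3, limma adjusted p = 0.861), without overlap between the groups. In the same order, B3galt1 had 6.19 ± 0.229 against 6.66 ± 0.291 FPKM, B4galt1 6.90 ± 0.281 against 7.85 ± 0.758 FPKM, and B4galt3 20.6 ± 0.625 against 19.4 ± 2.01 FPKM. B4galnt4 had 15.0 ± 2.39 against 13.2 ± 0.958 FPKM and B4galnt2 3.51 ± 0.558 against 3.33 ± 0.102 FPKM. Of 11 ganglioside-degrading genes none was at an unadjusted p below 0.05. Neu3, the sialidase of the plasma membrane, had 5.03 ± 0.293 against 4.496 ± 0.324 FPKM.

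**Figure D4:**
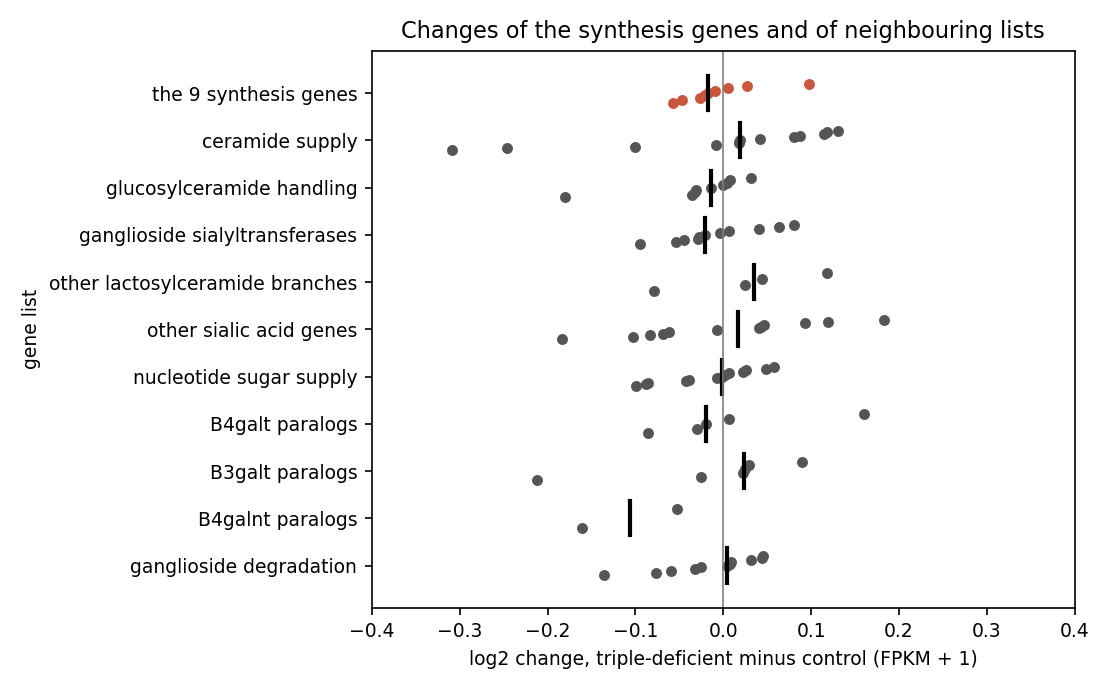
Log2 change between genotypes of each tested gene (points) in the 9 synthesis genes (red) and in 10 neighbouring lists (grey), with the median of each list as a black bar; 4 genes stand in 2 lists. The synthesis genes lie between -0.06 and 0.10, and the points farthest from 0 are Cers1 at -0.31 and Cers5 at -0.25 in ceramide supply.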

How the data were processed

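RNA was extracted from freshly isolated retinas with TRIzol and libraries were prepared with a stranded TruSeq mRNA kit, per the labels' protocols. The authors deposited 1 table of FPKM values per library. The submitters' processing notes name the build mm10 and, with no roles or settings, Cufflinks 2.2.1, Cuffdiff, Bowtie2 2.3.5.1 and TopHat2 2.1.1. Neither annotation nor library scaling is given in the sources used here. Those choices can shift a gene's level and its sharing of reads with overlapping genes.

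Values were used without rescaling. Under R 4.3.3, limma 3.58.1 with its mean-variance trend tested log2(FPKM + 1), a scale that understates the change of low genes, for the 14325 genes averaging 0.5 FPKM or more. All 9 members passed that filter. Two-sided p-values were adjusted by Benjamini-Hochberg over the 14325 genes, and 0.05 was the threshold. Ratios of 2 genes were compared by exact permutation of the libraries. The test was also run on simulated data, whose outcome is not given and is not used as evidence here.

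Depth is not in the tables. Values below 0.3 FPKM were divided by those of control 1. After the best shift, 61.1% to 64.1% of these quotients matched whole-number ratios (up to 6, tolerance 0.005 on the log2 scale), against 1.76% to 1.89% at the median shift, and the shifts gave relative depths of 0.806 to 1.21. The scale, 22.6 M fragments in control 1, came from 231 single-transcript genes of 2000 bases or longer. These estimates did not allow a count test.

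Per the design text the retinas came from 3 littermate pairs. The numbers 1 to 3 occur in both groups, but no label says that they mark the pairs, so the fit has no block. The labels do not say that each library is a separate animal, and p-values then measure only the spread between these samples. The members and lists were chosen with earlier results of these data known. Genes named outside the 9 are the targeted genes, the 2 with the smallest p in each list and the 3 most like Ugcg and B4galnt1, together with genes picked after their values were seen (Sptssa, B3galnt1, B4galt2, B3galt2, the tissue marker Opn1sw) and Trim14 and Slc26a10, which overlap members; some genes that this rule names are not reported here. Coordinates come from RefSeq for GRCm38.p6; GC content and length are those of the longest GENCODE M21 transcript, known for 96.3% of the genes tested. Alternatives changed the pseudocount, filter, scaling, shrinkage, weights, trends and libraries.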

Additional observations from a re-analysis of the deposited data

How the results depend on the processing

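In 16 alternatives no member and no gene of the neighbouring lists was called, and the 144 member values stayed between -0.09 and 0.17 with a smallest adjusted p of 0.760. The number of genes called over all genes, 4 in the reported fit, was 2 with no filter, 2 with robust shrinkage and 3 to 11 with 1 library left out. The sign turned in 13 of the 144 values: array quality weights gave 0.040 for B4galt5 and 0.014 for Gne, and removal of GC and length trends gave 0.021 for B4galnt1. That removal also turned the log2 difference of the B4galnt1 to Ugcg ratio to 0.018. With 1 library left out the changes ran from -0.082 to 0.027 for B4galt5, -0.073 to 0.035 for Gne, -0.090 to 0.096 for Nans and -0.057 to 0.023 for Slc35a1, and the B4galt6 to B4galt5 difference from -0.079 to 0.018. The causes were not tested. With the replicate block the count over all genes was 4 and that of members 0. Deviations of same-numbered libraries correlated at 0.022, 0.114 and 0.067 across genes, and those of differently numbered libraries at -0.195 to 0.120. The values of same-numbered libraries thus lay within the range of the others, and they do not show whether the numbers mark pairs. Deviations from group means cancel within each group, so these values also depend on each other. The numbers were not taken as pairs because no label says so. The smallest unadjusted limma p of a member, 0.0442 (adjusted p = 0.830), was that of B3galt4 with GC and length trends removed. B3galt4 has the fewest fragments.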
